A study of Mus musculus with 22 samples.

Results

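Most of the proteins of a mitochondrion are made in the cytosol and carried in through protein translocases. The TOM complex of the outer membrane is the common entry gate, the SAM complex inserts β-barrel proteins, the TIM23 complex and its motor move proteins with a cleavable presequence into the matrix, and the TIM22 complex, fed by small TIM chaperones, inserts carrier proteins into the inner membrane. Peptidases then remove presequences, and prohibitins and ATP-dependent proteases hold or degrade the imported proteins. Pancreatic β-cells depend on mitochondrial ATP to couple glucose to insulin secretion.

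The genes described here are those of this import and assembly machinery, chosen by gene symbol: Timm and Tomm genes, Pam16, Grpel1 and Grpel2, Samm50, Mtx1 to Mtx3, Pmpca and Pmpcb, Immp1l and Immp2l, Chchd genes, Phb and Phb2, Afg3l1 and Afg3l2, Lonp1, Clpp and Clpx. Of 51 matching symbols among 52327 genes in the table, 48 had at least 10 counts in at least 5 libraries and were kept. Closest inside this minimum was Timm8a1, with at least 10 counts in 21 libraries, and Mtx3 reached at least 13 counts in every library. The 3 symbols left out were Timm8a2, listed at 0 everywhere, Tomm20l, with at most 5 counts, and Tomm6, with at most 9 counts. All 48 members also passed the expression filter that left 14064 genes for testing.

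RNA was measured in flow-sorted pancreatic β-cells of 22 male mice, 3 months old and of mixed background, 1 library per mouse. Every mouse, controls included, had the genotype GluDTR+, SstDTR htz and PpyDTR htz, by their names receptors for diphtheria toxin (DT) under the glucagon, somatostatin and pancreatic polypeptide genes, which let DT remove the hormone cells other than β-cells. The groups were refed DT mice (n = 6, mice 13 to 17 and 20), fasted DT mice (n = 6, mice 6 to 11), refed control mice (n = 5, mice 12, 18, 19, 21 and 22) and fasted control mice (n = 5, mice 1 to 5), all taken 1 month after ablation. Fasted mice had no food for 8 h, and refed mice had the same fast followed by 2 h with food. The labels do not say what control mice were given in place of DT. Fasted mice carried the numbers 1 to 11 and refed mice 12 to 22, and no label names a day or batch, so feeding state and any day of collection or sequencing cannot be told apart.

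Libraries held 16584117 to 24988880 counts. Insulin genes took 40.3 to 69.4% of them, so the sorted cells carried the label's defining markers. Glucagon (Gcg) RNA, from the ablated α-cells, had a median of 0.461 CPM in refed DT and 0.146 CPM in fasted DT mice, against 157.6 CPM in refed control and 77.4 CPM in fasted control mice. Somatostatin (Sst) RNA had medians of 0.0496 and 0.0475 CPM in the same DT groups, against 55.99 and 30.3 CPM in the control groups. Mouse 13, a refed DT mouse, stood apart with the highest insulin share and the fewest genes detected, 15863 genes. The import genes took 0.0836% of its counts, against 0.168 to 0.188% in the other refed DT mice. Mice 13 and 20 also had the largest shares of mitochondrially encoded RNA, 1.36 and 1.59%. Levels are given as CPM, the count of a gene scaled to the size of its library times a factor for its composition (TMM). That factor was 0.567 in mouse 13 and 0.920 to 1.10 in the other mice. A smaller factor gives a higher CPM for the same share of counts. Summed acinar marker RNA, from exocrine cells, was 70.1 to 34500 CPM in refed DT mice, with a median of 8828, and 105.7 to 18300 CPM in fasted DT mice, with a median of 2337. It was 1248 to 20020 CPM in refed control mice, with a median of 11090, and 119.5 to 12490 CPM in fasted control mice, with a median of 4420. All 12 of its markers were detected in every library. Its part in the differences after refeeding was not tested; a fit with these markers as a covariate is given with the results. In these bulk libraries, fewer cells of a type and less RNA per cell cannot be told apart.

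Levels between genes were compared as TPM, which correct for exon length. Over the 22 mice the median level was highest for Timm8b, a small TIM chaperone, at 131.5 TPM (88.9 to 159.8). Chchd2, an intermembrane space protein, followed at 80.5 TPM (49.3 to 126.6), and Clpp, the peptidase subunit of the Clp protease, at 77.6 TPM (40.3 to 102.7). The lowest were Mtx3, a metaxin, at 0.369 TPM (0.133 to 1.05) and Timm8a1, a paralog of Timm8b, at 0.971 TPM (0.334 to 1.82). The ranges of Timm8b and Clpp over the 22 mice overlapped. All these TPM ranges pool the mice, and the order of genes within each mouse was not compared. Among paralog pairs, Grpel1 was at a median of 29.9 TPM (8.41 to 39.1) and Grpel2 at 4.94 TPM (1.16 to 6.48), which did not overlap. Tomm40 was at 12.1 TPM (4.96 to 23.0) and Tomm40l at 2.60 TPM (0.462 to 3.69), also without overlap. Timm17b at 19.5 TPM (11.2 to 27.0) and Timm17a at 11.8 TPM (7.16 to 14.9) overlapped, as did Afg3l1 at 16.5 TPM (5.92 to 20.5) and Afg3l2 at 11.04 TPM (3.08 to 15.8).

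**Figure D1:**
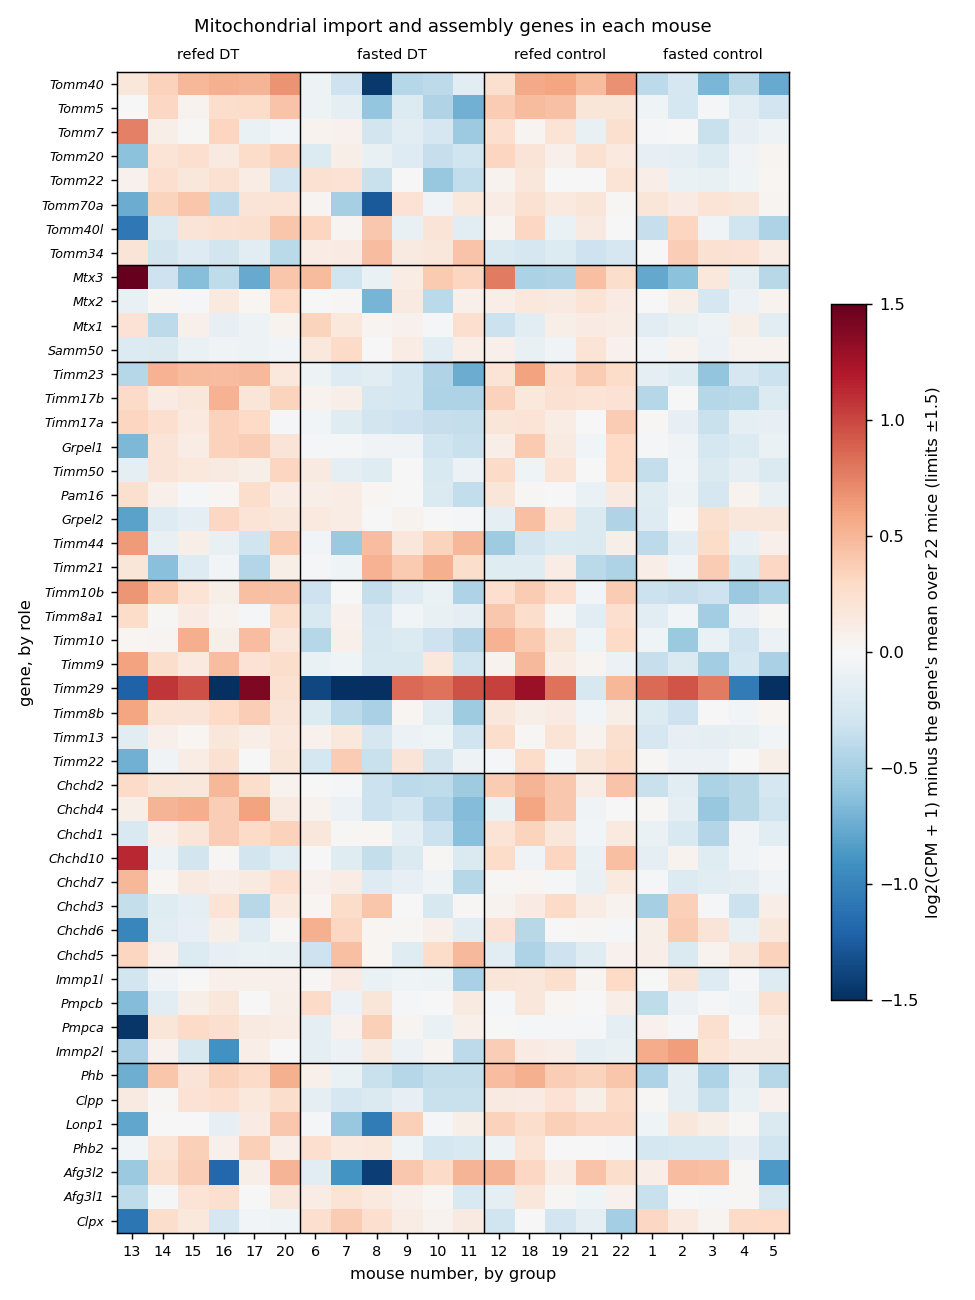
Level of each of the 48 import genes (rows, by role) in each mouse (columns, by group), as log2(CPM + 1) minus the mean of that gene over the 22 mice, with colours capped at both ends. Rows such as Tomm40, Timm23, Timm10b and Chchd2 were mostly red in refed and blue in fasted mice, Tomm34 the other way, and Timm29 varied between mice within every group.

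The first question was how β-cell import genes differed 2 h into refeeding from the fasted state. After refeeding, 22 of the 48 genes rose and 3 fell when the effect was averaged over DT and control mice (edgeR quasi-likelihood test, adjusted p under 0.05). The largest rises were those of Tomm40, the import channel of the outer membrane, 1.96-fold, Timm10b, a carrier translocase subunit, 1.61-fold, and Timm23, the presequence channel of the inner membrane, 1.59-fold. The genes that fell were Tomm34, Clpx and Timm21. The 22 risen genes were 45.8% of the members, where 17.2% of all 14064 tested genes rose, and the 3 fallen genes were 6.25%, where 21.7% of all tested genes fell. The median log2 difference, refed minus fasted, was 0.22 for the members and -0.06 for all tested genes.

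Within DT mice, 15 members rose and 2 fell after refeeding, 31.2% and 4.17%, where 10.8% of all tested genes rose and 13.5% fell. Within control mice, 14 rose and 2 fell, 29.2% and 4.17%, where 10.9% of all tested genes rose and 12.3% fell. The median log2 difference of the members was 0.21 in DT mice and 0.25 in control mice, with -0.06 and -0.04 over all genes. Of the risen genes, 12 were shared, which is 80% of those in DT mice and 85.7% of those in control mice. Tomm34 was the only fallen gene called in both. The levels of 9 members were higher in every refed than in every fasted DT mouse, where 4% of all tested genes were, and 0 members were lower in every refed DT mouse, where 6.11% of all genes were. In control mice 15 members were higher in every refed mouse, where 10.4% of all genes were, and 2 (Tomm34 and Clpx) were lower in every refed mouse, where 11.1% of all genes were.

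The summed level of the 48 genes showed the same order. It averaged 1680 ± 103 CPM in refed DT and 1467 ± 82.5 CPM in fasted DT mice (SD, n = 6 each), and 1725 ± 67.2 CPM in refed control and 1468 ± 49.8 CPM in fasted control mice (SD, n = 5 each). Refed DT mice spanned 1476 to 1744 CPM and fasted DT mice 1350 to 1572 CPM. They overlapped through mouse 13 alone, at 1476 CPM, since the next refed DT mouse was at 1690 CPM. Refed control mice spanned 1616 to 1799 CPM and fasted control mice 1435 to 1556 CPM, without overlap.

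The promoters of members that rose, fell or did not pass are shown so that genes that moved together can be compared in short motifs known from genes of mitochondrial proteins. RefSeq (GRCm38.p6) gave a promoter, 250 bases before to 50 after the start site, for 41 of the 48 members. The searched motifs, on both strands, were CCGGAAG (core of ETS factors such as GABP), CGCATGCG (NRF1), CACGTG (E-box) and AAGATGGC (YY1). Shown are the 100 bases before the start site, 5′ to 3′ on the strand of the gene, with motif matches in capitals. Timm23, Timm8b, Timm10 and Timm9 rose, Tomm34 fell, Tomm22 did not pass, and Tomm40 rose most.
Timm23, chr14:32201892-32201991, minus strand: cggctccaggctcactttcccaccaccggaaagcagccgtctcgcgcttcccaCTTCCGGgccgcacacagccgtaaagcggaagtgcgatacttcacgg
Timm8b, chr9:50603801-50603900, plus strand: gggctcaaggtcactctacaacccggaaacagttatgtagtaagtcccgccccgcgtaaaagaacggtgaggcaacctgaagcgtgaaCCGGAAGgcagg
Timm10, chr2:84826921-84827020, plus strand: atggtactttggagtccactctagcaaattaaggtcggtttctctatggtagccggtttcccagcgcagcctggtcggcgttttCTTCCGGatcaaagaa
Timm9, chr12:71136676-71136775, minus strand: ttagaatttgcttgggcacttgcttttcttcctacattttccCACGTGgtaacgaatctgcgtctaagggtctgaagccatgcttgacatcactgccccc
Tomm34, chr2:164071170-164071269, minus strand: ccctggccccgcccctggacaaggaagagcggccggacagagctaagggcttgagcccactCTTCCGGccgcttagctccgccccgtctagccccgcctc
Tomm22, chr15:79670768-79670867, plus strand: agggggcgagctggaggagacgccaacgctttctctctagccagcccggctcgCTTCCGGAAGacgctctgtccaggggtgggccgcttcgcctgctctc
Tomm40, chr7:19715430-19715529, minus strand: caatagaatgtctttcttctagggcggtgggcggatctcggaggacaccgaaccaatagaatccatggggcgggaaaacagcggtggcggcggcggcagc
The ETS core stood in the promoters of 18 of 41 members (43.9%), of 18.2% of the 10502 tested genes with a promoter and of 9.12% of all 27025 promoters. It was in 7 of 19 risen members (36.8%) and in 11 of 22 other members (50%). The E-box stood in 9 of 41 member promoters (22%), with 10.1% among tested genes and 7.24% among all. It was in 6 of 19 risen members (31.6%) and 3 of 22 others (13.6%). NRF1 letters were in 2 members (4.88%, with 3.94% of tested genes and 1.91% of all) and YY1 letters in 4 (9.76%, with 4.72% of tested genes and 2.88% of all). In 2 promoters, matches of the ETS core on opposite strands overlapped, as in Tomm22 above. None of the 4 motifs was in the Tomm40 window. A match is a run of letters and was not tested for binding.

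**Figure D2:**
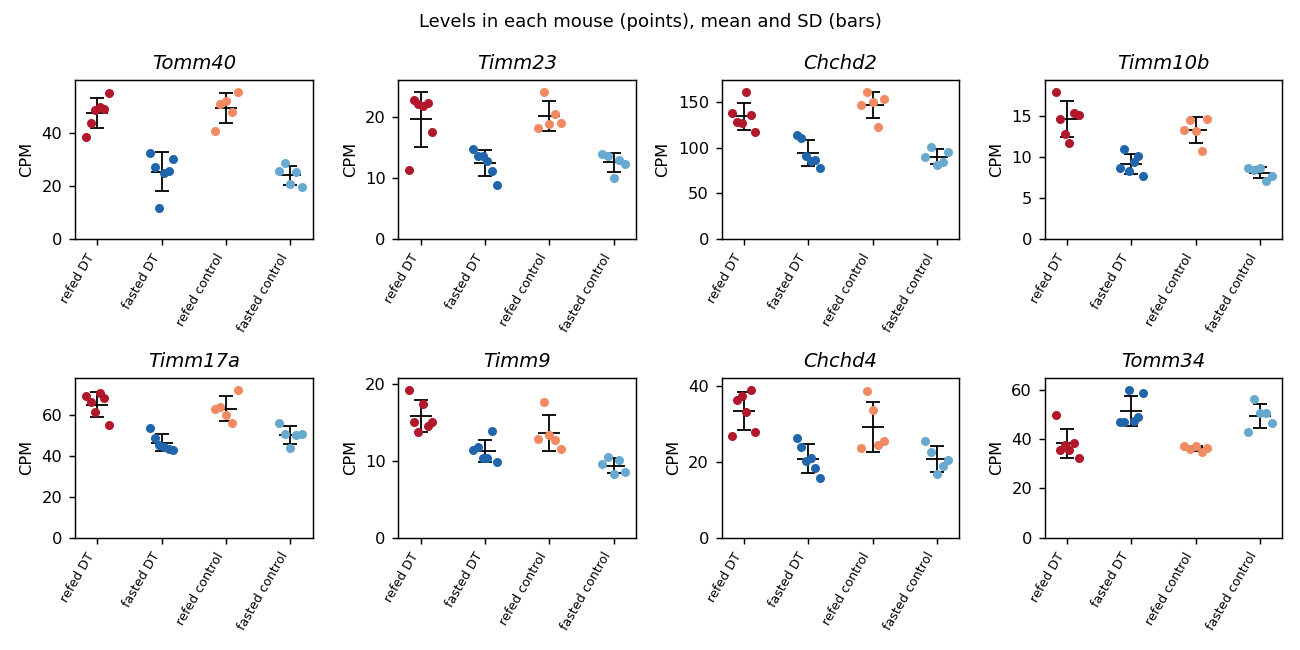
CPM of 8 import genes in each mouse (points), with the mean (bar) and SD (whiskers) of each group, on axes that start at 0. In control mice every refed mouse was above every fasted mouse for Tomm40, Timm23, Chchd2, Timm10b and Timm9, and below for Tomm34, while mouse 13 was the low refed DT point for Timm23.

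Of the 8 genes of the outer membrane translocase group, 4 rose, 1 fell and 3 did not pass in the averaged comparison. Tomm40 was at 38.5, 48.7 and 55.0 CPM (lowest, median and highest) in refed DT and at 11.8, 26.5 and 32.3 CPM in fasted DT mice. In control mice it was at 40.5, 50.8, 51.9, 47.8 and 55.4 CPM after refeeding, against 25.6, 28.5, 20.7, 25.3 and 19.7 CPM after fasting, in order of mouse number. Every refed mouse was above every fasted mouse, and mouse 8 was the low point among fasted DT mice. The log2 difference was 0.90 ± 0.17 in DT mice (SE, adjusted p = 0.000541) and 1.04 ± 0.19 in control mice (adjusted p = 0.000357). Tomm5, a small TOM subunit, was at 13, 15.7 and 17.6 CPM in refed DT and 7.40, 10.1 and 12.1 CPM in fasted DT mice. It was at 17.1, 18.3, 17.7, 14.7 and 14.7 CPM in refed control mice, against 12.2, 10.6, 12.6, 11.4 and 10.4 CPM in fasted control mice. Its groups did not overlap either, and it rose by 0.62 ± 0.13 on the log2 scale in DT mice (adjusted p = 0.00113) and by 0.53 ± 0.14 in control mice (adjusted p = 0.00758).

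Tomm34, a cytosolic co-chaperone that handles proteins before import, ran the other way. It was at 32.6, 36.8 and 49.9 CPM in refed DT and 47.0, 48.3 and 60.1 CPM in fasted DT mice. Refed control mice were at 37.3, 36.2, 37.5, 34.9 and 36.3 CPM, against 43.1, 56.4, 50.9, 50.6 and 46.8 CPM in fasted control mice. Every refed control mouse was below every fasted one, and in DT mice mouse 13 alone reached into the fasted range. The log2 difference was -0.43 ± 0.10 in DT mice (adjusted p = 0.0033) and -0.44 ± 0.11 in control mice (adjusted p = 0.00522). Tomm20, a presequence receptor, rose when averaged (log2 difference 0.31 ± 0.09, adjusted p = 0.0104) but did not pass within DT mice (0.31 ± 0.12) or control mice (0.30 ± 0.13). Without mice 13 and 20 it rose in both, by 0.47 ± 0.09 in DT mice (adjusted p = 0.000557) and by 0.34 ± 0.09 in control mice (adjusted p = 0.00633). Tomm20 has near-identical stretches in 4 pseudogenes, which make its counts uncertain. Each covers 6.12 to 8.87% of its transcript, and the pseudogenes held 0 to 37 counts, against 17892 for Tomm20. Tomm7, another small subunit, rose in DT mice (0.38 ± 0.14, adjusted p = 0.0437) and when averaged (0.31 ± 0.10, adjusted p = 0.0177), and stood at 0.24 ± 0.15 in control mice, not passing. With acinar markers as a covariate the averaged rise of Tomm7 was 0.25 with an adjusted p of 0.0504, where its alternatives spanned 0.00756 to 0.0504. The receptors Tomm22 and Tomm70a and the paralog Tomm40l did not pass, with averaged log2 differences of 0.17, 0.11 and 0.08. Tomm22, without mice 13 and 20, rose in DT mice (0.38 ± 0.14, adjusted p = 0.0442) and when averaged (0.27 ± 0.10, adjusted p = 0.0306). Of the exon bases of Tomm40l, 64.3% overlap Nr1i3 on the opposite strand.

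Of the 4 genes of the sorting and assembly machinery, 0 passed in a refeeding comparison over all 22 libraries by edgeR, DESeq2 or limma voom. At an unadjusted p under 0.05 by edgeR there was 1 in DT mice, where 36% of all tested genes were, 0 in control mice, where 34.6% were, and 1 when averaged, where 47% were. Samm50, its β-barrel core, was at 44.3, 48.7 and 50.3 CPM in refed DT and 46.3, 56.1 and 63.6 CPM in fasted DT mice. It was at 54.8, 47.8, 49.9, 59.95 and 54.4 CPM in refed control and 50.2, 53.9, 48.6, 53.9 and 54.0 CPM in fasted control mice. The groups overlapped in both, and the log2 difference was -0.21 ± 0.08 in DT mice (adjusted p = 0.0574) and 0.03 ± 0.09 in control mice. The metaxins Mtx1, Mtx2 and Mtx3 stood at averaged log2 differences of -0.06, 0.19 and 0.57, and the last has an SE of 0.41. Mtx3 was at 9.78 CPM in mouse 13 and at 0.644 to 2.71 CPM in the other refed DT mice. In the fit without mice 13 and 20, Mtx3 turned to -0.11 ± 0.28 when averaged and to -1.09 ± 0.41 in DT mice (adjusted p = 0.0549), and Mtx2 rose when averaged (0.24 ± 0.09, adjusted p = 0.0427).

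Of the 9 genes of the presequence translocase and its motor, 5 rose, 1 fell and 3 did not pass. Timm23 was at 11.3, 22 and 22.8 CPM in refed DT and 8.94, 13.2 and 14.8 CPM in fasted DT mice. It was at 18.2, 24.2, 18.9, 20.6 and 19 CPM in refed control mice, against 14, 13.6, 10.02, 12.9 and 12.3 CPM in fasted control mice. Mouse 13 was the only refed mouse within the fasted range of its comparison. The log2 difference was 0.66 ± 0.16 in DT mice (adjusted p = 0.00372) and 0.68 ± 0.17 in control mice (adjusted p = 0.0058). Without mice 13 and 20 it was 0.91 ± 0.13 in DT mice. Timm23 has 6 near-identical copies elsewhere in the genome, over 24.8 to 95.6% of its transcript, so its counts are uncertain. The copies with a count listed held 0 to 71, against 7363 for Timm23, and AC139240.1 had none listed.

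Timm17a and Timm17b, alternative partners of Timm23 in the channel, rose in both. Timm17a was at 55.0, 67.4 and 70.8 CPM in refed DT and 43.2, 45.1 and 53.8 CPM in fasted DT mice. It was at 63.2, 64.1, 60.3, 56.0 and 72.5 CPM in refed control and 56.5, 51.1, 43.8, 50.3 and 51.0 CPM in fasted control mice. The DT groups did not overlap, and in control mice fasted mouse 1 exceeded refed mouse 21. The log2 differences of Timm17a were 0.49 ± 0.09 in DT mice (adjusted p = 0.000326) and 0.32 ± 0.09 in control mice (adjusted p = 0.0157). Timm17b was at 31.5, 34 and 41.6 CPM in refed DT and 20.6, 24.0 and 30.8 CPM in fasted DT mice. It was at 36.8, 32.2, 33.8, 33.4 and 33.7 CPM in refed control and 21.1, 28.7, 21.1, 21.6 and 24.8 CPM in fasted control mice. Every refed mouse was above every fasted mouse of the same treatment. Its log2 differences were 0.49 ± 0.11 in DT mice (adjusted p = 0.00311) and 0.54 ± 0.12 in control mice (adjusted p = 0.00316).

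Timm50, the presequence receptor of this complex, rose in control mice (0.36 ± 0.11 on the log2 scale, adjusted p = 0.0199) and stood at 0.22 ± 0.10 in DT mice, not passing. Grpel1, the nucleotide exchange factor of the import motor, passed when averaged (0.29 ± 0.10, adjusted p = 0.0221) but not within DT or control mice, and its paralog Grpel2 stood at -0.09 ± 0.13. With mice 13 and 20 left out, Grpel1 rose in DT mice (0.46 ± 0.10, adjusted p = 0.00163) and in control mice (0.35 ± 0.10, adjusted p = 0.00942), Timm50 rose in DT mice (0.30 ± 0.10, adjusted p = 0.0245), and Grpel2 turned to 0.01 ± 0.11 when averaged. Timm21, which links the translocase to assembly of respiratory chain subunits, was at 6.71, 10.1 and 12.5 CPM in refed DT and 10.4, 14.1 and 16.3 CPM in fasted DT mice. It was at 9.51, 9.50, 11.9, 8.01 and 7.64 CPM in refed control and 11.8, 10.5, 14.6, 9.23 and 13.9 CPM in fasted control mice. The groups overlapped in both, and it fell when averaged (-0.42 ± 0.13, adjusted p = 0.0112) and in DT mice (-0.48 ± 0.17, adjusted p = 0.045). The call in DT mice was lost on leaving out any of 14 single libraries and under 5 of 8 other settings, DESeq2 among them. The motor components Pam16 and Timm44, which are a regulator of the motor chaperone and its anchor at the channel, did not pass (0.18 ± 0.08 and -0.12 ± 0.14), but Pam16 rose when averaged without mice 13 and 20 (0.22 ± 0.08, adjusted p = 0.0411).

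The carrier translocase and the small TIM chaperones, which escort hydrophobic proteins across the intermembrane space, gave the largest share among the member groups. When averaged, 6 of 8 rose (75%) and 0 fell, where 17.2% of all tested genes rose and 21.7% fell. All 8 averaged log2 differences were above 0, where 6411 of 14064 tested genes were. Among related genes that are not members, those listed for the intermembrane space and insertion had 8 of 10 risen (80%) and 0 fallen. Timm10b was at 11.8, 15 and 18 CPM in refed DT and 7.68, 9.07 and 10.9 CPM in fasted DT mice. It was at 13.3, 14.6, 13.2, 10.7 and 14.6 CPM in refed control and 8.63, 8.44, 8.65, 7.15 and 7.67 CPM in fasted control mice. Neither pair of groups overlapped, and the log2 differences were 0.67 ± 0.12 in DT mice (adjusted p = 0.00045) and 0.71 ± 0.13 in control mice (adjusted p = 0.000568). Timm9, whose promoter window holds an E-box, was at 13.8, 15.1 and 19.3 CPM in refed DT and 9.87, 10.9 and 13.9 CPM in fasted DT mice. It was at 12.9, 17.7, 13.4, 12.7 and 11.5 CPM in refed control and 9.54, 10.5, 8.29, 10.1 and 8.54 CPM in fasted control mice. The DT groups touched at 1 mouse each, the control groups did not overlap, and the log2 differences were 0.49 ± 0.12 in DT mice (adjusted p = 0.0059) and 0.54 ± 0.14 in control mice (adjusted p = 0.0059).

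Timm10, the partner of Timm9 in the chaperone ring, was at 9.32, 10.04 and 13.8 CPM in refed DT and 6.47, 7.37 and 9.70 CPM in fasted DT mice. It was at 13.5, 12.3, 10.5, 8.67 and 11.4 CPM in refed control and 8.68, 5.88, 8.43, 7.25 and 8.50 CPM in fasted control mice. The groups overlapped narrowly, and the log2 difference was 0.54 in both, with SEs of 0.15 in DT mice (adjusted p = 0.011) and 0.16 in control mice (adjusted p = 0.0183). Timm8b was at 42.9, 44.7 and 56.8 CPM in refed DT and 25.4, 30.2 and 38.2 CPM in fasted DT mice. It was at 42.0, 39.7, 40.6, 36.4 and 39.9 CPM in refed control and 32.3, 30.0, 37.1, 36.3 and 38.1 CPM in fasted control mice. The DT groups did not overlap and the control groups did. Of its exon bases, 15.6% overlap Nkapd1 on the opposite strand, and the counting is not stated to use strand. Opposite-strand overlaps with 1 other gene were larger for Mtx1 (21.2%), Pmpca (20.4%) and Pam16 (18.7%), and Grpel1 had 11.6%. Timm10b overlaps Gm45799 on the same strand over 10.5% of its exon bases and Arfip2 on the opposite strand over 7.73%. Timm8b rose by 0.61 ± 0.10 on the log2 scale in DT mice (adjusted p = 0.000214) and stood at 0.19 ± 0.11 in control mice (adjusted p = 0.24). The test of that difference, 0.42 ± 0.15, did not pass (adjusted p = 0.59).

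Timm13, also a small TIM chaperone, rose in control mice (0.30 ± 0.10, adjusted p = 0.0262) and when averaged (0.22 ± 0.06, adjusted p = 0.00956). Timm8a1 rose when averaged (0.61 ± 0.22, adjusted p = 0.0324) at a level of 0.266 to 1.40 CPM over all mice, and lost the call on leaving out any of 7 single libraries. Timm22, the channel of the carrier translocase, did not pass (averaged 0.10 ± 0.11), and neither did its subunit Timm29 (0.48 ± 0.51).

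**Figure D3:**
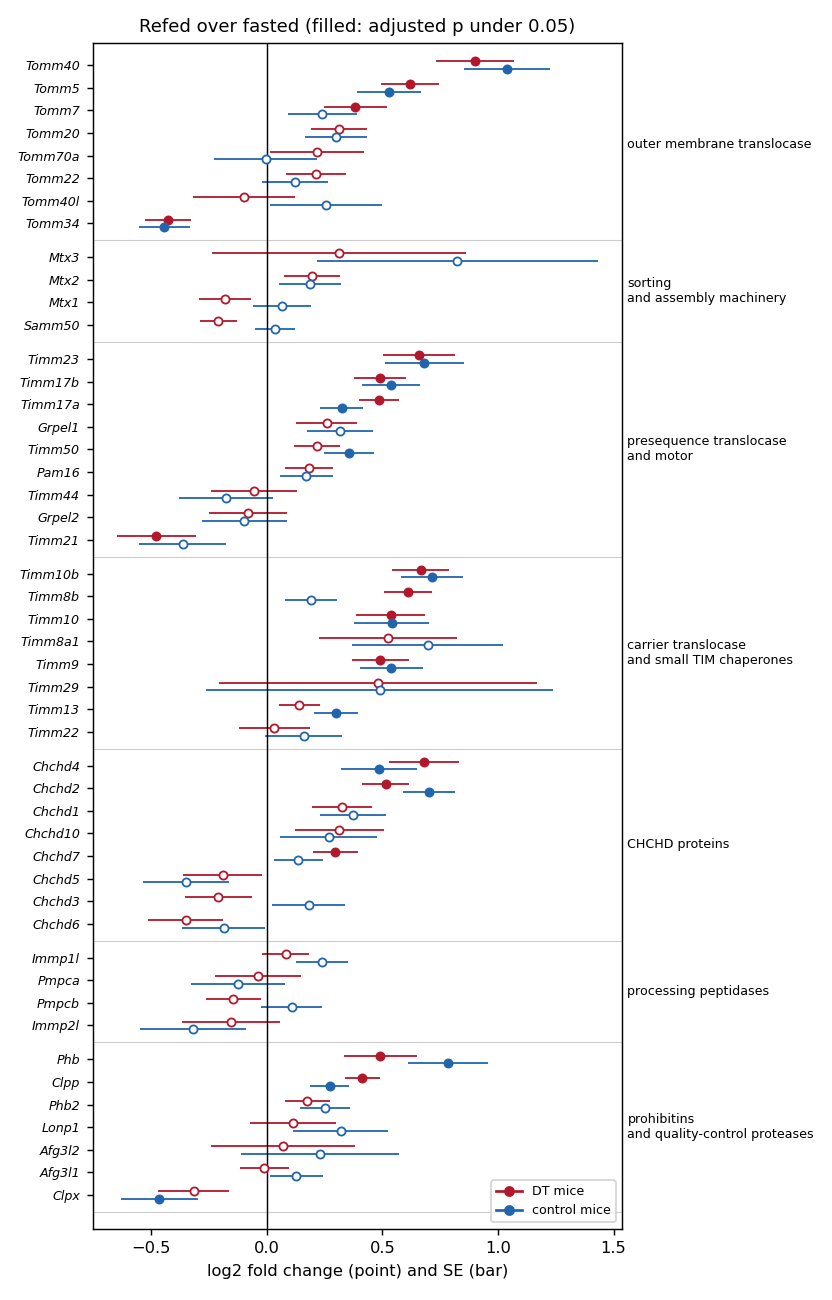
Log2 fold change, refed over fasted, of each import gene with its SE (bars), by role, in DT mice (red) and control mice (blue). Filled points passed an adjusted p of 0.05. Carrier translocase and small TIM genes all lay right of 0, processing peptidases lay on both sides, from -0.32 to 0.24, and Tomm34 lay left of 0 in both.

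Among the 8 CHCHD genes, which encode proteins with paired cysteine motifs, 4 rose, 0 fell and 4 did not pass when averaged. Chchd2 was at 117, 132 and 160.3 CPM in refed DT and 77.5, 88.5 and 114 CPM in fasted DT mice. It was at 147, 161, 150.1, 122 and 152 CPM in refed control and 89.6, 101, 81.0, 84.5 and 94.8 CPM in fasted control mice. No refed mouse overlapped the fasted mice of its treatment, and the log2 differences were 0.51 ± 0.10 in DT mice (adjusted p = 0.000859) and 0.70 ± 0.11 in control mice (adjusted p = 0.000117). Chchd2 has near-identical stretches in 3 other genes, over 49.6 to 50.5% of its transcript, so its counts are uncertain. Those genes held 67 to 346 counts, against 52180 for Chchd2. Chchd4, the oxidoreductase that folds proteins entering the intermembrane space, was at 26.9, 34.6 and 38.9 CPM in refed DT and 15.7, 20.5 and 26.2 CPM in fasted DT mice. It was at 23.6, 38.6, 33.7, 24.4 and 25.4 CPM in refed control and 25.6, 22.6, 16.8, 18.8 and 20.4 CPM in fasted control mice. The DT groups were apart and the control groups overlapped. Its log2 differences were 0.68 ± 0.15 in DT mice (adjusted p = 0.00227) and 0.49 ± 0.16 in control mice (adjusted p = 0.036). Chchd1, a subunit of the mitochondrial ribosome, rose when averaged (0.35 ± 0.10, adjusted p = 0.00649), as did Chchd7 (0.22 ± 0.07, adjusted p = 0.0202), which also rose within DT mice (0.30 ± 0.10, adjusted p = 0.0286). Chchd3 and Chchd6, subunits of the cristae-organising complex, did not pass (averaged -0.01 ± 0.11 and -0.27 ± 0.12), nor did Chchd5 (-0.27 ± 0.13) or Chchd10, a paralog of Chchd2 (0.29 ± 0.14). Leaving out mice 13 and 20, Chchd1 rose in DT mice (0.44 ± 0.14, adjusted p = 0.0199) and in control mice (0.41 ± 0.14, adjusted p = 0.0282), Chchd10 rose in control mice (0.30 ± 0.11, adjusted p = 0.0484), and Chchd3 turned to 0.04 ± 0.11 when averaged.

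Of the 4 processing peptidase genes, 0 passed in a refeeding comparison over all 22 libraries by edgeR, DESeq2 or limma voom. At an unadjusted p under 0.05 by edgeR there were 0 in DT mice, where 36% of all tested genes were. There was 1 in control mice, where 34.6% were, and 1 when averaged, where 47% were. Pmpca and Pmpcb, the subunits of the presequence peptidase of the matrix, stood at averaged log2 differences of -0.08 ± 0.14 and -0.02 ± 0.09. Immp1l and Immp2l, the inner membrane peptidase, stood at 0.16 ± 0.08 and -0.24 ± 0.16. When mice 13 and 20 were left out, Pmpca rose in DT mice (0.23 ± 0.09, adjusted p = 0.0462) and Immp1l when averaged (0.23 ± 0.08, adjusted p = 0.0179), and the averaged values of Pmpca and Pmpcb turned to 0.07 ± 0.06 and 0.08 ± 0.07.

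Of the 7 prohibitins and quality-control proteases, 3 rose, 1 fell and 3 did not pass. Phb, which with Phb2 forms ring scaffolds in the inner membrane, was at 11.2, 24.2 and 28.4 CPM in refed DT and 14.1, 15 and 20.3 CPM in fasted DT mice. It was at 27.0, 28.4, 25.2, 24.5 and 26.0 CPM in refed control and 13.7, 17.3, 13.7, 17.4 and 14 CPM in fasted control mice. The control groups were apart, and in DT mice mouse 13 lay below all fasted mice. Phb rose by 0.49 ± 0.16 on the log2 scale in DT mice (adjusted p = 0.0276) and by 0.78 ± 0.17 in control mice (adjusted p = 0.00246). Near-identical stretches in 3 other genes, over 18.8 to 45.5% of the Phb transcript, make its counts uncertain. Those genes held 0 to 212 counts, against 9118 for Phb. Phb2 rose when averaged (0.21 ± 0.07, adjusted p = 0.0231), a call that was lost without mouse 18 (adjusted p = 0.0503). It rose, without mice 13 and 20, in DT mice (0.32 ± 0.11, adjusted p = 0.0268) and in control mice (0.29 ± 0.10, adjusted p = 0.0407).

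Clpp and Clpx, the peptidase and the unfoldase of 1 matrix protease, went opposite ways. Clpp was at 55.9, 63.3 and 66.7 CPM in refed DT and 43.6, 47.0 and 50.9 CPM in fasted DT mice. It was at 61.1, 60.5, 64.4, 58.9 and 67.9 CPM in refed control and 56.0, 50.1, 43.5, 51.7 and 58.0 CPM in fasted control mice. Neither pair of groups overlapped, and Clpp rose by 0.41 ± 0.08 on the log2 scale in DT mice (adjusted p = 0.00052) and by 0.27 ± 0.08 in control mice (adjusted p = 0.0228). Clpx was at 28, 58.6 and 72.9 CPM in refed DT and 63.1, 69.6 and 79.4 CPM in fasted DT mice. It was at 49.1, 60.4, 49.5, 54.7 and 42.2 CPM in refed control and 75.4, 67, 62.2, 74.2 and 74.7 CPM in fasted control mice. Every refed control mouse was below every fasted one, and the DT groups overlapped. Clpx, like Timm17a, Timm8a1, Pam16, Grpel2 and Immp1l, has a near-identical stretch in 1 other gene, so the counts of these genes are uncertain. The stretch covers 10.8% of the transcript of Clpx, 7.09% of Timm17a, 43.1% of Timm8a1, 89.6% of Pam16, 16.8% of Grpel2 and 52.3% of Immp1l. In that order the other genes held 7, 77, 6, 99, 577 and 79 counts. The members held 28410, 25310, 373, 6666, 8278 and 14353. The log2 difference of Clpx was -0.47 ± 0.17 in control mice (adjusted p = 0.0471), a call lost on leaving out any of 16 single libraries. It was -0.32 ± 0.15 in DT mice (adjusted p = 0.137) and -0.39 ± 0.11 when averaged (adjusted p = 0.00859). Mouse 13 was at 28 CPM of Clpx and the other refed DT mice at 50.8 to 72.9 CPM. Without mice 13 and 20 the log2 difference of Clpx was -0.08 ± 0.11 in DT mice, -0.43 ± 0.11 in control mice (adjusted p = 0.00479) and -0.26 ± 0.08 when averaged (adjusted p = 0.0105). The matrix protease Lonp1 (0.22 ± 0.14) and the inner membrane proteases Afg3l1 (0.06 ± 0.08) and Afg3l2 (0.15 ± 0.23) did not pass when averaged.

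Related function was covered by 48 tested genes, listed for the motor, folding, insertion, proteolysis and regulation. When averaged, 19 rose and 5 fell, 39.6% and 10.4%, where 17.2% of all tested genes rose and 21.7% fell. Within DT mice 12 rose and 3 fell, 25% and 6.25%, where 10.8% of all genes rose and 13.5% fell. Within control mice 10 rose and 1 fell, 20.8% and 2.08%, where 10.9% of all genes rose and 12.3% fell. The matrix chaperonin genes Hspd1 and Hspe1 rose by 1.17 ± 0.08 and 1.68 ± 0.13 on the log2 scale when averaged. Near-identical copies were not looked for in these related genes, so any effect of copies on their values is not known. Of the 15 regulators of mitochondrial genes, 3 rose (20%) and 4 fell (26.7%) when averaged, where 17.2% of all tested genes rose and 21.7% fell. Differences above 0 were found for 4 regulators, and for 6411 of all 14064 tested genes. The median log2 difference of these regulators was -0.22, where that of all tested genes was -0.06. Among them the coactivators Pprc1 and Ppargc1a rose by 1.33 ± 0.09 and 1.55 ± 0.21. Mtch2, an outer membrane insertase, rose by 0.51 ± 0.08 and Stoml2, a prohibitin relative, by 0.38 ± 0.07. Gabpa, the subunit of GABP that binds the ETS core, differed by -0.44 ± 0.09 when averaged (adjusted p = 0.000475) and by -0.67 ± 0.12 in DT mice (adjusted p = 0.00039). The other 3 regulators that fell when averaged, named after their values were seen, were Tfb2m (-0.71 ± 0.18), Nrf1 (-0.55 ± 0.15) and Gabpb1 (-0.56 ± 0.15). In control mice Atad3a and Timmdc1 rose by 0.82 ± 0.18 (adjusted p = 0.00225) and 0.94 ± 0.21 (adjusted p = 0.00256).

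The second question was whether loss of the other hormone cells moved import genes. In the comparison of DT with control mice, 0 of the 48 members passed in refed mice, where 0.0356% of all tested genes did, 0 in fasted mice, where 0.0284% did, and 0 when averaged over feeding, where 0.206% did. The count was also 0 with DESeq2 and with limma voom. At an unadjusted p under 0.05 by edgeR there were 1 member in refed mice, where 10% of all tested genes were, 2 in fasted mice, where 8.33% were, and 4 when averaged, where 11.9% were. The 95% interval of the difference lay within 1.5-fold either way for 40 of 48 members in refed mice, for 40 in fasted mice and for 43 when averaged. The median log2 difference over the members was -0.03 in refed, 0.02 in fasted and -0.01 in averaged mice, with -0.0037, 0.01 and 0.01 over all tested genes.

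Smallest in p among refed mice were Timm8b, Immp1l and Samm50. Timm8b, with the values given above, was higher in every refed DT mouse than in every refed control mouse, where 0.427% of all genes were. Its log2 difference was 0.23 ± 0.11 (adjusted p = 0.473), and Immp1l and Samm50 stood at -0.21 ± 0.11 and -0.16 ± 0.08. Among fasted mice Immp2l was at 2.79, 3.69 and 4.45 CPM in DT mice, against 6.32, 6.69, 4.75, 4.45 and 4.46 CPM in control mice. Every fasted DT mouse was below every fasted control mouse, though by a small margin at 4.45 CPM, where 0.775% of all genes were lower in this way. Its log2 difference was -0.52 ± 0.22 (adjusted p = 0.529). In refed mice Immp2l was at 1.65, 3.61 and 4.31 CPM in DT mice, against 5.41, 4.41, 4.35, 3.54 and 3.63 CPM in control mice, which overlapped. When averaged it stood at -0.44 ± 0.16 (adjusted p = 0.25), a 95% interval of 0.589 to 0.922-fold. Phb2 stood at 0.24 ± 0.10 in fasted mice and 0.21 ± 0.07 when averaged (adjusted p = 0.25), and Timm9 at 0.27 ± 0.13 and 0.24 ± 0.09.

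**Figure D4:**
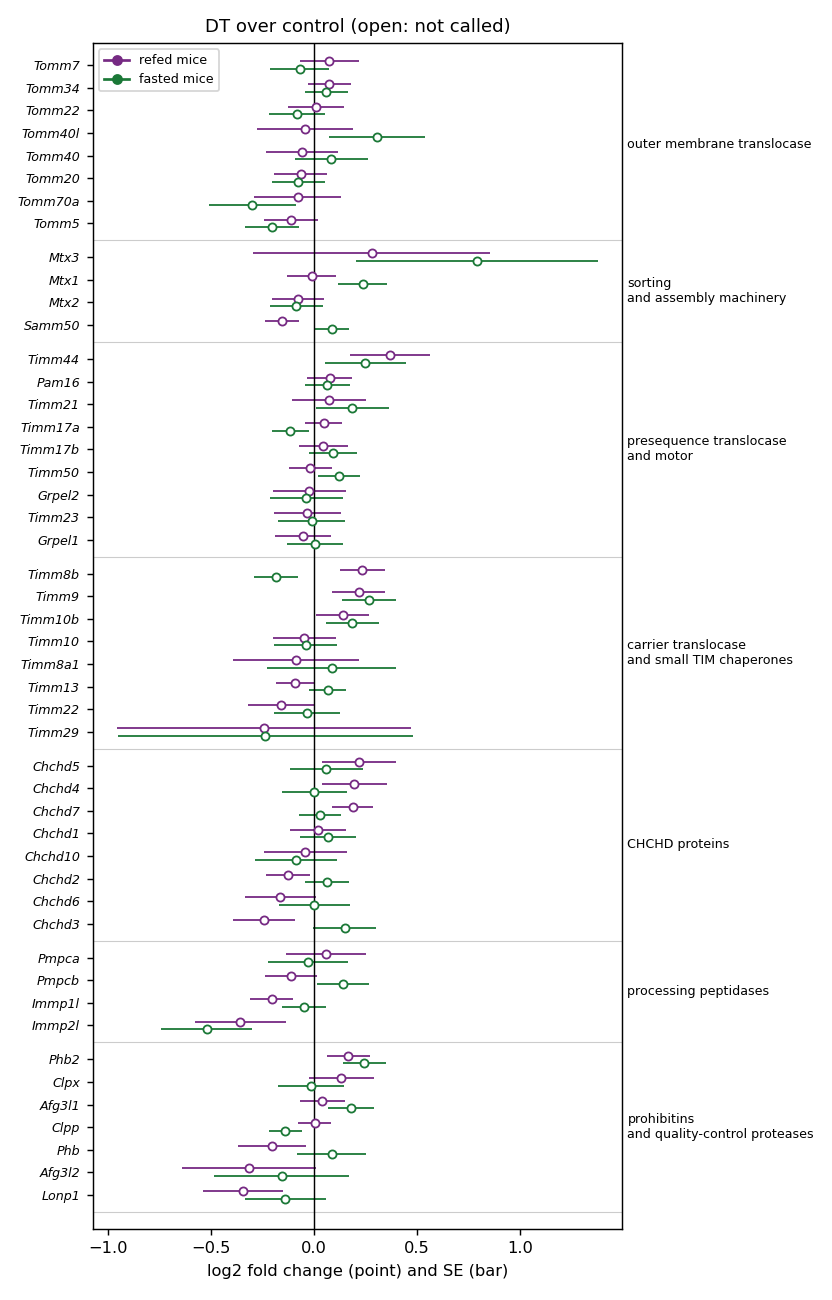
Log2 fold change, DT over control, of each import gene with its SE (bars), by role, in refed mice (purple) and fasted mice (green). Every point is open because 0 of 48 members passed in either comparison, and the widest bars were those of Timm29 and Mtx3.

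The difference between the DT effects in refed and fasted mice passed for 0 of 48 members, where 0.00711% of all tested genes passed, and for 1 member at an unadjusted p under 0.05, where 7.14% of all tested genes were. DESeq2 and limma voom also called 0 members. The smallest p values were those of Timm8b (0.42 ± 0.15, adjusted p = 0.59), Samm50 (-0.24 ± 0.12, adjusted p = 0.698) and Chchd3 (-0.39 ± 0.21, adjusted p = 0.745). For this term the 95% interval lay within 1.5-fold for 25 of 48 members only, with SEs of 0.11 to 1.02 on the log2 scale. Of the 48 related genes, 0 passed by edgeR, DESeq2 or limma voom in any comparison of DT with control mice or in this term. At an unadjusted p under 0.05 by edgeR there were 3 in refed mice, 7 in fasted mice, 7 when averaged and 4 for this term, where 10, 8.33, 11.9 and 7.14% of all tested genes were.

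Members differed widely in how steady they were between mice of a group. Clpp had a within-group SD of 0.11 on the log2 scale, Samm50 0.12 and Timm17a 0.13. Timm29 had 1.41, which was the 96.6th percentile of all tested genes. It was at 6.73, 35.2 and 60.02 CPM in refed DT and 3.18, 23.8 and 44.0 CPM in fasted DT mice. It was at 45.9, 55.6, 39.6, 18.6 and 31.7 CPM in refed control and 40.5, 43.3, 38.6, 10.1 and 4.21 CPM in fasted control mice. The low mice were 13 and 16 among refed DT, 6 to 8 among fasted DT, and 4 and 5 among fasted control mice, at 10.1 CPM or less. Afg3l2, with a within-group SD of 0.61, was at 24.0, 62.1 and 79.0 CPM in refed DT and 20.2, 58.9 and 79.5 CPM in fasted DT mice. It was at 79.2, 69.0, 59.8, 74.8 and 66.8 CPM in refed control and 59.4, 76.9, 75.9, 56.1 and 30.0 CPM in fasted control mice. Its lowest mouse in each group but refed control (16, 8 and 5) was also among the low mice for Timm29. Mtx3, with an SD of 0.91, was at 9.78 CPM in mouse 13 and at 0.627 to 3.76 CPM in the other mice. Mouse 13 was the lowest refed DT mouse for 24 of 48 members (50%), and for 39.3% of all tested genes. In the other groups the shares lay further apart. Mouse 11 was the lowest fasted DT mouse for 47.9% of members and 17.2% of all tested genes. Mouse 3 was the lowest fasted control mouse for 39.6% and 18.2%, and mouse 21 the lowest refed control mouse for 37.5% and 20.8%.

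**Figure D5:**
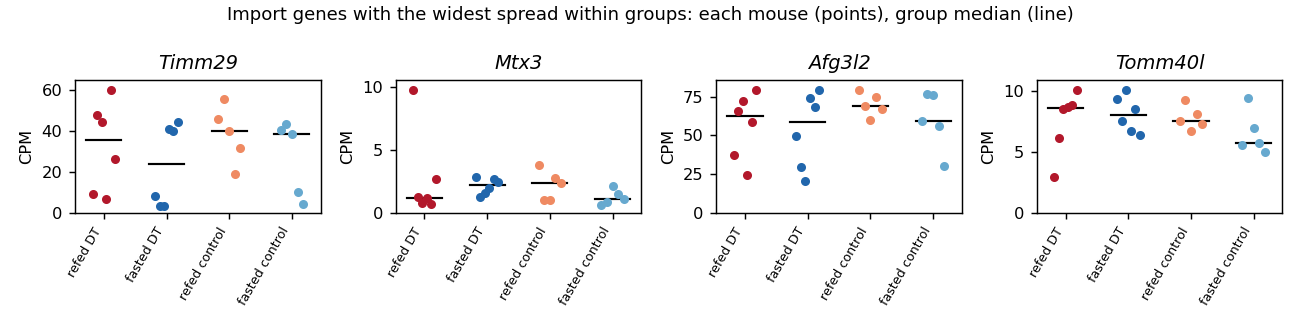
CPM of the 4 import genes with the widest spread within groups, in each mouse (points) with the group median (line), on axes that start at 0. Timm29 split into high and low mice within groups, Mtx3 had 1 high point (mouse 13, 9.78 CPM), and Afg3l2 and Tomm40l spread over a range without a step between groups.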

How the data were processed

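The deposited table gives, per the labels, 1 column of read counts per gene for each of 22 mice. Per the submitters' processing notes, STAR 2.7.2b, HTSeq 0.9.1 and DESeq2 1.28.1 were used with GRCm38.p6; the strand setting is not given in the sources used here. Counts were whole numbers, and 0 columns belonged to no mouse. The test used edgeR 4.0.16 under R 4.3.3 (TMM factors, filterByExpr, robust quasi-likelihood F tests on 1 coefficient per group, Benjamini-Hochberg over 14064 genes, adjusted p under 0.05, no minimum fold). Every adjusted p is from edgeR unless another tool is named. CPM use TMM-scaled library sizes. SEs of log2 differences come from the F statistic. TPM use exon lengths of GENCODE on GRCm38, and positions and promoters are from RefSeq. Mouse numbers, 1 each, are the replicates, with no pairing. Reads carry no molecular identifiers. DESeq2 1.42.0 and limma 3.58.1 were alternatives, with other scaling, other filters, fewer groups, an acinar covariate and each library left out. The fits were tested on simulated data. The members and gene lists were chosen with earlier results of these data known. Genes named were those called (at most 15 per direction), the 3 with the smallest p where fewer than 3 were called, and a standing list of core subunits. Opposite-strand overlap and near-identical copies were looked for by a script. Minos1 and 2410015M20Rik, 2 of 50 related genes listed, were not analysed here. Cysteine motifs of proteins were not analysed here.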

Additional observations from a re-analysis of the deposited data

Results flagged for a closer look

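A single mouse lay far from the rest of its group in 8 of 104 sets of values (7.69%), where about 1 in 20 (5%) is expected by chance, and 5 of the 8 were mouse 13. Among refed DT mice, mouse 13 had 49.9 CPM of Tomm34 (others 32.6 to 38.6), 11.2 CPM of Phb (others 22.1 to 28.4), 24.9 CPM of Tomm20 (others 42.7 to 49.3) and 36.6 CPM of Grpel1 (others 63.8 to 76.3). Its summed level of the import genes was 1476 CPM (others 1690 to 1744). Mouse 13 also had the largest insulin share of counts, 69.4%, and the smallest TMM factor, 0.567, which enters all its CPM. The part of either in its standing apart was not tested. Mouse 8, fasted DT, had 11.8 CPM of Tomm40 (others 25.03 to 32.3). Mouse 18, refed control, had 64.8 CPM of Phb2 (others 53.1 to 56.2). Mouse 2, fasted control, had a summed level of 1556 CPM (others 1435 to 1458).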

How the results depend on the processing

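Under up to 8 other settings the count of members called stayed within 1.5 times the value given, with 1 exception: with no filter on low counts, refed against fasted control mice gave 10 members (9 higher, 1 lower) instead of 16. Leaving out single libraries gave 13 to 23 members in DT mice, 11 to 21 in control mice and 23 to 29 when averaged, and 0 in each comparison of DT with control mice and in the interaction. Without mice 13 and 20 the counts were 24, 21 and 29, and all 17, 16 and 25 members called before remained. With acinar markers as a covariate they were 15, 14 and 23. The shares of all tested genes called under these settings and omissions are not given here. Changes in these counts therefore cannot be read as particular to the members. Of the members called after refeeding, 0 turned direction under these settings or omissions. Of the members not called, 10 turned in DT mice, 2 in control mice and 6 when averaged under at least 1 of them. Without mice 13 and 20 these were 6 in DT mice (Afg3l1, Grpel2, Mtx3, Pmpca, Pmpcb and Tomm40l), Tomm70a in control mice, and 5 when averaged (Chchd3, Grpel2, Mtx3, Pmpca and Pmpcb). Called under every setting and every single omission were 13 of 17, 9 of 16 and 22 of 25 members. In DT mice, single omissions took the adjusted p of Phb up to 0.0674 (mice 8 to 11, 14, 16 and 20), that of Chchd7 up to 0.0775 (mice 8, 9 and 11), that of Tomm7 up to 0.109 (mice 5, 8 to 11, 16, 19 and 22) and that of Timm21 up to 0.108 (14 libraries). In control mice they took that of Timm17a up to 0.0745 and of Clpp up to 0.0807 (mice 3 and 22), of Timm10 up to 0.054 (mice 2 and 12), of Timm50 up to 0.0608 (mice 1, 12 and 22), of Timm13 up to 0.0776 (mice 1, 3, 12, 19 and 22), of Chchd4 up to 0.131 (mice 3 to 5, 18 and 19) and of Clpx up to 0.127 (16 libraries). Other settings took the adjusted p in DT mice up to 0.0972 for Phb, 0.107 for Chchd7 and 0.125 for Tomm7. Timm21 lost its call there in 5 of 8. In control mice other settings gave up to 0.0503 for Timm17a, 0.0839 for Clpp and 0.0558 for Timm50. They gave up to 0.0799 for Timm13, 0.0622 for Chchd4 and 0.111 for Clpx. When averaged, Timm8a1 reached 0.0697 on single omissions (7 libraries) and 0.11 with no filter on low counts. Phb2 reached 0.0503 without mouse 18 and 0.0585 with the acinar covariate. The cause was not tested. No paired analysis was possible because each mouse number occurs once. Depth limits Timm8a1, with a median of 16.5 counts, and Mtx3, with 31.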
